A study of Mus musculus with 23 samples.

Results

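Gene expression at ZT12 was compared with ZT0 in the 6-OHDA-injected tibialis anterior muscle of wild-type mice. Zeitgeber time (ZT) counts the hours from the start of the light phase, and ZT12 marks the start of the dark phase. The genes described are those with at least 1 FPKM, a fragment count scaled to exon length and library size, in at least 2 of the 8 libraries of these muscles, which gave 11926 of the 14500 genes in the deposited table. The study had 23 libraries, made from total RNA of this fast shin muscle and sequenced as read pairs, of which 15 were wild-type and 8 were from RE-RE mice. RE-RE mice have stopFL alleles of Bmal1 together with the Syt10-Cre and Hsa-Cre transgenes, and their libraries enter no comparison here except in an alternative estimate of the spread. By its title it concerned the effect of removing sympathetic nerves on the muscle clock. The agent, 6-OHDA, is a toxin that catecholamine-releasing neurons take up and that destroys their endings.

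Injected muscle at ZT12 had 4 libraries, numbered 5 to 8, from mice of 15, 12, 12 and 13 weeks. At ZT0 it had 4 libraries, numbered 1 to 4, from mice of 15, 15, 16 and 16 weeks. All were female C57BL/6 mice with free access to food, and the muscle had received repeated injections of 50 mg/kg, followed by a recovery period. Sham muscle of wild-type mice, with 3 libraries at ZT12 and 4 at ZT0 and mice of 12 to 18 weeks, was left without injection, so that toxin and injection cannot be told apart between injected and sham muscle. The mice at ZT12 were mostly younger than those at ZT0, so that age and time are only partly separable. The labels do not say that each library came from its own animal, and p-values measure the spread between these libraries.

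Reads recovered from the values came to 25965000 to 36124000 per library after rounding. All 8 markers of skeletal muscle fibres were measured, with summed levels of 43640 to 58560 FPKM at ZT12 and 41340 to 55160 FPKM at ZT0. Of 7 markers of sympathetic neurons, whose cell bodies lie outside the muscle, 2 had values, with sums of 0.805 to 1.21 FPKM at ZT12 and 1.05 to 1.62 FPKM at ZT0. The neutrophil and the lymphocyte lists had no member above the filter. The libraries of one time were not alike. The first principal component, with 33.6% of the variance, set ZT0 libraries 1 and 3 against ZT12 libraries 5, 7 and 8, and placed ZT12 library 6 with ZT0 library 2. ZT0 library 4 stood apart on the second, with 16.9%. No 2 of the 8 libraries held identical values.

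In the molecular clock of mammals, BMAL1 (the product of Arntl) pairs with CLOCK or NPAS2, binds E-boxes and drives the period and cryptochrome genes, whose proteins repress that pair. REV-ERB and ROR receptors compete at a shared half-site in the Arntl gene, and DBP, HLF, TEF and NFIL3 act at D-boxes. In skeletal muscle this clock is known to time genes of glucose and lipid use, and in nocturnal rodents blood corticosterone peaks near the start of the night.

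Promoters of 6 clock genes that differed between the times are shown because they carry these motifs. Each runs from 250 bases before to 50 bases after a start given by RefSeq, 5′ to 3′ on the gene's own strand, in the GRCm38.p6 build. For Per1 and Clock the window lies wholly inside the gene as placed by GENCODE M21. There the 2 genes begin at 69095217 and 76304792 on their own strands. The searched letters, on both strands, were CACGTG for the E-box, TTATGTAA or TTACGTAA for the D-box and AGGTCA for the half-site, which reads TGACCT on the other strand. Capitals mark the matches. The windows are Arntl at chr7:113207261-113207560 (plus strand), Per1 at chr11:69098699-69098998 (plus), Ciart at chr3:95882179-95882478 (minus), Per3 at chr4:151044616-151044915 (minus), Bhlhe41 at chr6:145865371-145865670 (minus) and Clock at chr5:76303453-76303752 (minus).
Arntl: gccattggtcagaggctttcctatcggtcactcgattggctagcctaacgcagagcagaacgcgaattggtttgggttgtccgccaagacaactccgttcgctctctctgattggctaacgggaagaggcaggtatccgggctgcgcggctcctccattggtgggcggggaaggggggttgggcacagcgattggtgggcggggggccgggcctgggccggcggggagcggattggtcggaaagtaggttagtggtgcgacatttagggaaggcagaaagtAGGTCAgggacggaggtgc
Per1: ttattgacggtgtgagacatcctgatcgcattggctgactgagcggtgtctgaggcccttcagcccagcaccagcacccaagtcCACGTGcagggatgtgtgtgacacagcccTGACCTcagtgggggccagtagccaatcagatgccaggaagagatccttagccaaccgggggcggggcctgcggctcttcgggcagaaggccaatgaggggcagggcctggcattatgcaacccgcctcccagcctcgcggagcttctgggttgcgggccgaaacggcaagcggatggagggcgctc
Ciart: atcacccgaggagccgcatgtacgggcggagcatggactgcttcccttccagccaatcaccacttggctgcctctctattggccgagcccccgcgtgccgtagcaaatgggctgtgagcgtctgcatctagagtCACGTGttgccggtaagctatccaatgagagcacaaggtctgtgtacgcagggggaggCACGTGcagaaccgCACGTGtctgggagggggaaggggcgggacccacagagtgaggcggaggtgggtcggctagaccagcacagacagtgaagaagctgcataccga
Per3: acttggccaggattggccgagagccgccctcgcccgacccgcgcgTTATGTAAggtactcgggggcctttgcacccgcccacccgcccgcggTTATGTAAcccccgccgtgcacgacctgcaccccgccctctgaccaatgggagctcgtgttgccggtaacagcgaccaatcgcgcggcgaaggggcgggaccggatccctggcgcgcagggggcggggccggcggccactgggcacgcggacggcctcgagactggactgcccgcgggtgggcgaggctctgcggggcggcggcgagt
Bhlhe41: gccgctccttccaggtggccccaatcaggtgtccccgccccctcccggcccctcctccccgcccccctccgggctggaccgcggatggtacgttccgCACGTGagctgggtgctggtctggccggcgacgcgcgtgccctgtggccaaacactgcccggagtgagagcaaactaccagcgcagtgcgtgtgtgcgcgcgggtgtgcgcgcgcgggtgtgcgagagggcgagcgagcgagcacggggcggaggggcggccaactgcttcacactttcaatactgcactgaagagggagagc
Clock: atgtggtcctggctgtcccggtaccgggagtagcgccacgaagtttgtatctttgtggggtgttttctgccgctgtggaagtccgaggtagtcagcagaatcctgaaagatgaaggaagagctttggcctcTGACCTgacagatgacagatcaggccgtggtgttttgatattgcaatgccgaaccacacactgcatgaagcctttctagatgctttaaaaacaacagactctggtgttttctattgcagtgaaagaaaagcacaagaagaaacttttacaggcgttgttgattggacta
Ciart held 3 E-boxes, Per3 held 2 D-boxes, Per1 held an E-box and a half-site, and the single match in Arntl lay after the gene's start.

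Among all promoters matched by symbol, an E-box was present in 18.6% of those of genes that were higher at ZT12 (16 of 86) and 17.4% of those that were lower (4 of 23), against 12.1% of those of all tested genes (1057 of 8726). A D-box was present in 3 of 86, 0 of 23 and 68 of 8726 promoters of the same sets, which is 0.779% of the promoters of tested genes. The half-site was present in 15.1%, 21.7% and 15.0%. Over all 32851 windows of the table the shares were 7.15% for the E-box, 1.06% for the D-box and 16.3% for the half-site. None of these motifs overlaps another in the windows shown, and a match of letters is not a binding site.

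Of the 11926 genes, 113 were higher at ZT12 (0.948%) and 28 were lower (0.235%) at a Benjamini-Hochberg adjusted p under 0.05 in limma, together 1.18% of those tested. At an unadjusted p under 0.05 stood 1782 genes, of which 867 were higher. The genes that rose had a median log2 difference of 1.11, and 19 of them differed by at least 2 log2 units. The genes that fell had a median of -0.94, and 4 differed by at least 2. In all 141 genes the 4 libraries at ZT12 did not overlap the 4 at ZT0, which held for 4.06% of all tested genes in the higher and 3.35% in the lower direction. The number of genes called changed when single libraries were left out or age was added to the model. Leaving out ZT0 library 3, ZT12 library 5 or ZT12 library 7 gave 67 genes each, and leaving out ZT12 library 8 gave 62. Leaving out ZT0 library 4 gave 285, and leaving out ZT12 library 6 gave 355. With age as a covariate 17 genes were called, 15 of them among the 141. In that limma fit 1793 genes were at an unadjusted p under 0.05.

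**Figure D1:**
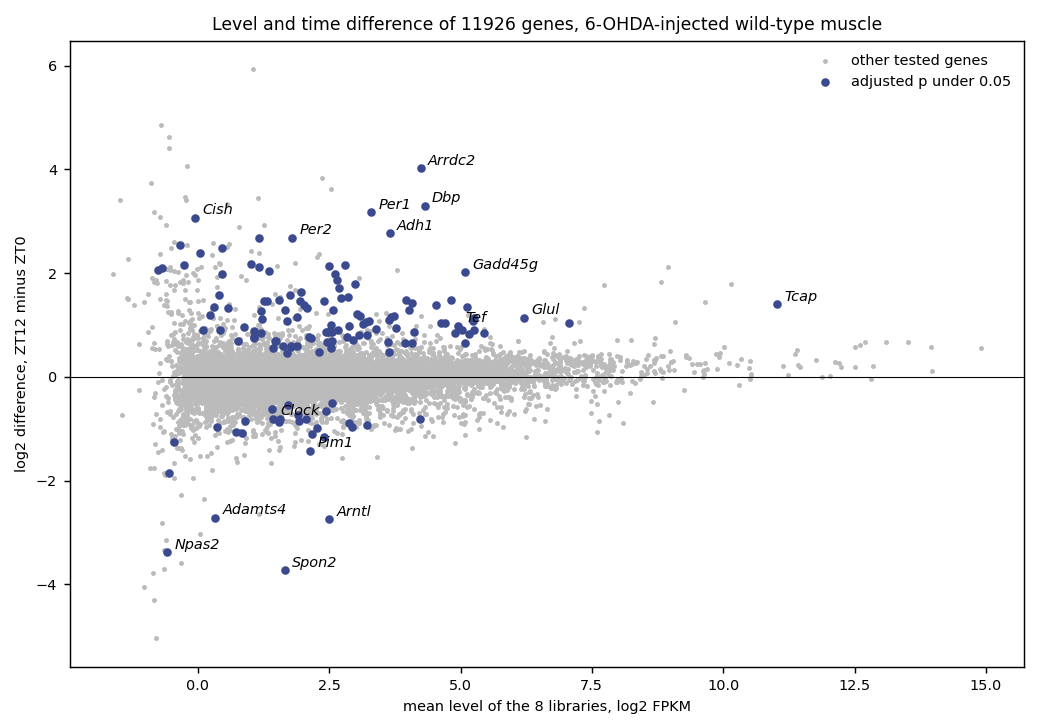
Log2 difference between ZT12 and ZT0 (vertical axis) against the mean level in log2 FPKM (horizontal axis) for each of the 11926 genes in injected muscle, with the 141 genes past the test in blue. The blue points above 0 (113) outnumber those below it (28), and Arrdc2 and Spon2 lie farthest from 0 among them.

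Of the 20 clock genes tested, 10 rose, 3 fell and 7 did not pass the test. Over all tested genes 0.948% rose and 0.235% fell. Arntl, which encodes the activator BMAL1, had 1.73, 1.23, 1.67 and 1.27 FPKM at ZT12, against 9.31, 9.12, 10.6 and 10.3 FPKM at ZT0. Every ZT12 library lay far below every ZT0 library. The log2 difference of Arntl was -2.74 ± 0.13 (SE, 95% confidence interval -3.04 to -2.44, adjusted p = 1.94e-05), a level 6.69 times lower at ZT12. Npas2, a partner of BMAL1, was at 0.139, 0.125, 0.0659 and 0.104 FPKM at ZT12, against 1.68, 1.15, 1.25 and 0.817 FPKM at ZT0. These levels rested on 11 to 20 reads per library at ZT12 and 99 to 277 at ZT0, and Npas2 fell by 3.38 on the log2 scale (SE 0.47, adjusted p = 0.00911). Without ZT0 library 1, 2 or 3, Npas2 was no longer called (adjusted p 0.0559 to 0.0775). Clock, the other partner, had 1.76, 2.12, 2.11 and 1.83 FPKM at ZT12 and 3.16, 3.13, 3.57 and 3.79 FPKM at ZT0, and fell by 0.80 (SE 0.11, adjusted p = 0.00887). Arntl2, a relative of Arntl, averaged 1.26 ± 0.16 FPKM at ZT12 and 1.09 ± 0.17 FPKM at ZT0 (SD, n = 4 each), and these groups overlapped (adjusted p = 0.571).

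All 3 period genes rose. Per1 had 17.9, 20.8, 15.9 and 16.1 FPKM at ZT12, against 2.64, 2.14, 1.64 and 1.54 FPKM at ZT0. Its log2 difference was 3.17 ± 0.17 (SE, adjusted p = 3.22e-05), which is 9.01-fold. Per2 had 7.07, 5.57, 5.02 and 6.27 FPKM at ZT12, against 1.38, 0.70, 1.01 and 0.729 FPKM at ZT0, a log2 difference of 2.68 ± 0.21 (SE, adjusted p = 0.000582). For both genes the gap between the times was wider than the range within either time. Per3 averaged 9.20 ± 1.08 FPKM at ZT12 and 2.12 ± 0.52 FPKM at ZT0 (SD, n = 4 each), and rose by 2.14 log2 units (adjusted p = 0.000706). Ciart, whose product represses the BMAL1 pair, had 3.41, 2.59, 4.48 and 5.20 FPKM at ZT12, against 0.654, 0.708, 0.501 and 0.507 FPKM at ZT0, and rose 6.37-fold (adjusted p = 0.000706). The cryptochromes differed from each other in outcome. Cry2 averaged 5.61 ± 0.76 FPKM at ZT12 and 3.33 ± 0.37 FPKM at ZT0 and rose by 0.75 log2 units (adjusted p = 0.0215), whereas Cry1 averaged 4.92 ± 0.55 and 5.92 ± 0.33 FPKM (SD, n = 4 each) and did not pass (log2 difference -0.27 ± 0.10 SE, adjusted p = 0.261). Cry2 was no longer called without ZT0 library 1 or 3 or without ZT12 library 5 or 8 (adjusted p 0.0539 to 0.085).

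Of the factors that act at D-boxes, the 3 activators rose. Dbp had 32.5, 27.2, 36.8 and 48.95 FPKM at ZT12, against 3.90, 4.07, 3.23 and 3.33 FPKM at ZT0. This was a log2 difference of 3.29 ± 0.17 (SE, adjusted p = 2.63e-05), the largest of the 20 clock genes apart from the size of the fall in Npas2. Hlf had 2.00, 1.42, 1.54 and 1.95 FPKM at ZT12, against 0.291, 0.298, 0.300 and 0.397 FPKM at ZT0, and rose 5.23-fold (adjusted p = 0.00131). Tef, the most abundant of them at ZT0, averaged 41.4 ± 6.2 FPKM at ZT12 and 20.9 ± 2.9 FPKM at ZT0 (SD, n = 4 each) and rose 1.99-fold (adjusted p = 0.00946). Nfil3, the repressor at the same sites, averaged 6.36 ± 0.82 FPKM at ZT12 and 8.92 ± 3.34 FPKM at ZT0, and its groups overlapped (adjusted p = 0.387).

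**Figure D2:**
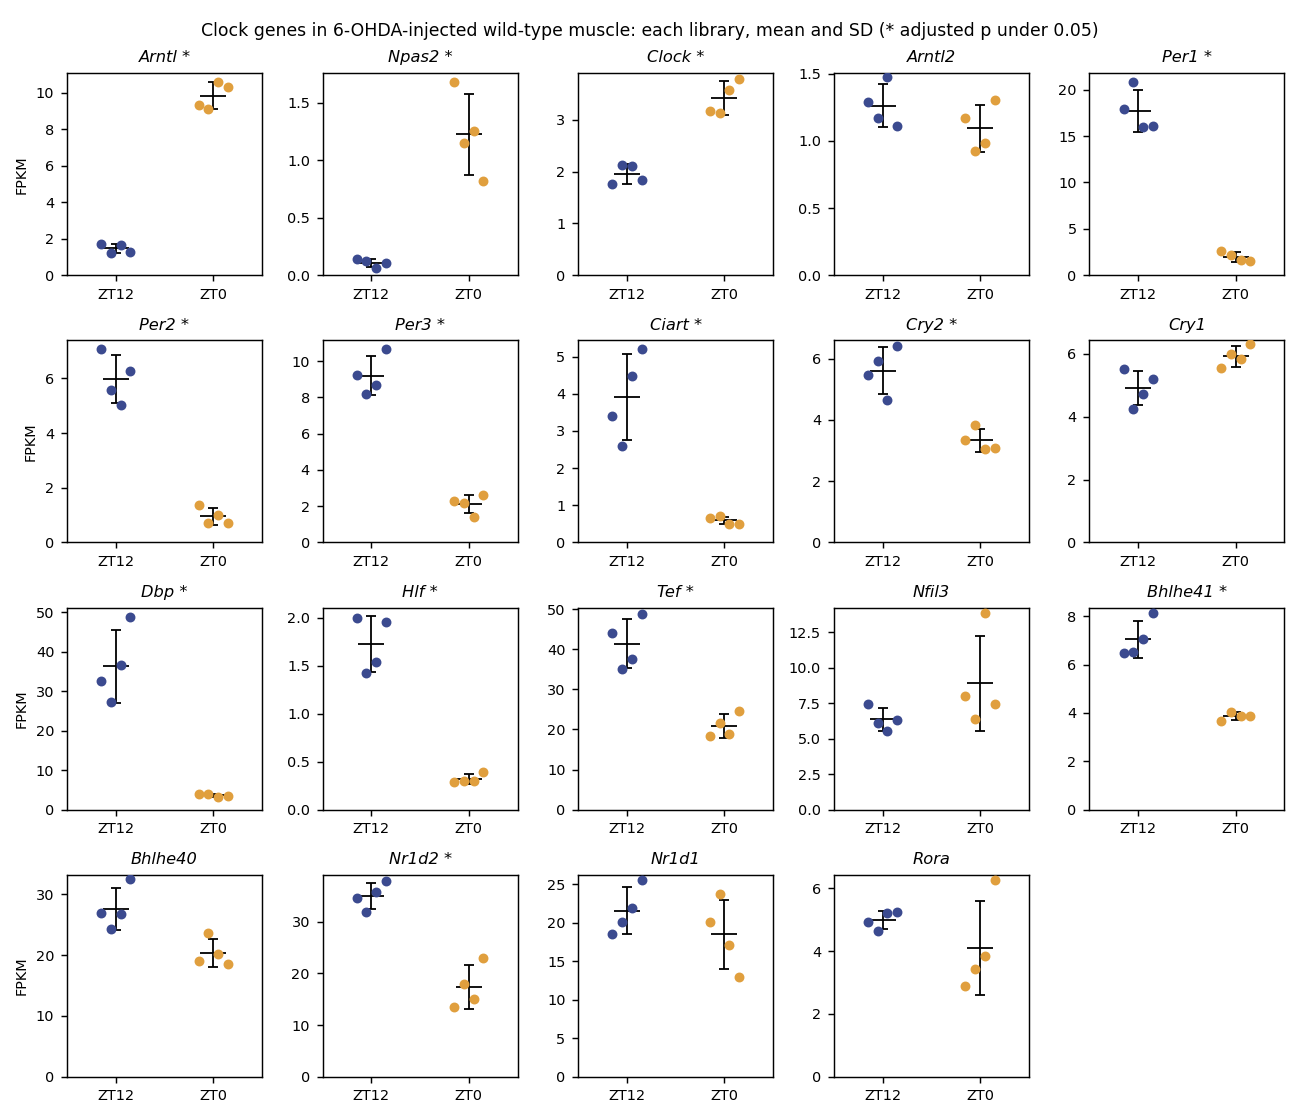
FPKM (vertical axes, from 0) of 19 clock genes in each injected library at ZT12 and ZT0, with mean and SD of 4 libraries, and an asterisk at an adjusted p under 0.05. Arntl, Npas2 and Clock are low at ZT12, the period genes, Ciart, Dbp, Hlf and Tef are high, and Nr1d1 and Rora overlap between the times.

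Among the nuclear receptors and DEC factors, Nr1d2 and Bhlhe41 rose. Nr1d2, which encodes REV-ERBβ, averaged 34.99 ± 2.47 FPKM at ZT12 and 17.4 ± 4.2 FPKM at ZT0 (log2 difference 1.04 ± 0.16 SE, adjusted p = 0.0157), and missed the threshold without ZT0 library 3 or ZT12 library 5, 7 or 8 (adjusted p 0.0604 to 0.0707). Bhlhe41, which encodes the repressor DEC2, averaged 7.04 ± 0.78 FPKM at ZT12 and 3.87 ± 0.15 FPKM at ZT0 and rose 1.81-fold (adjusted p = 0.00312). Nr1d1, which encodes REV-ERBα, had 18.6, 20.1, 21.95 and 25.6 FPKM at ZT12 and 20.1, 23.7, 17.1 and 13.0 FPKM at ZT0. The times overlapped for Nr1d1, and its log2 difference of 0.25 ± 0.18 (SE) did not pass (adjusted p = 0.538). Bhlhe40 was higher by 0.44 ± 0.12 (SE) with groups that did not overlap, but missed the threshold (adjusted p = 0.1315). Rora, which encodes a ROR receptor, differed by 0.35 ± 0.21 log2 units (SE), and its groups overlapped (adjusted p = 0.452). Of the 13 clock genes called, 5 remained called with age as a covariate, and these were Arntl, Per1, Per2, Dbp and Hlf. Without both ZT0 libraries 1 and 3, 7 were called, and without both ZT0 library 4 and ZT12 library 6, 14 were called. Of all tested genes, these 2 fits called 40 and 1409, and both pairs were chosen after seeing the data.

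Of 8 tested genes for turnover of clock proteins, 1 rose, where 0.948% of all tested genes rose. Usp2, which encodes a deubiquitinase that acts on clock proteins, had 39.2, 39.4, 38.5 and 49.8 FPKM at ZT12, against 15.8, 15.7, 15.6 and 12.3 FPKM at ZT0. Its log2 difference was 1.49 ± 0.12 (SE, adjusted p = 0.000706). The kinase gene Csnk1e differed by 0.44 ± 0.13 and Fbxw11, a ligase subunit, by -0.24 ± 0.09 log2 units (SE), and neither passed.

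Of 25 genes listed as known outputs of the muscle clock, 6 rose and none fell, where 0.948% of all tested genes rose. A positive difference was found in 20, with a median of 0.55 against 0.0032 over all tested genes. Usp2 was one of the 6. Tspan4, a membrane protein of the tetraspanin family, averaged 12.9 ± 0.8 FPKM at ZT12 and 6.17 ± 1.01 FPKM at ZT0 (SD, n = 4 each, adjusted p = 0.00352). Dgat2, which makes triglyceride, had 22.8, 17.1, 27.2 and 32.1 FPKM at ZT12, against 8.02, 11.8, 8.14 and 8.38 FPKM at ZT0, and rose 2.69-fold (adjusted p = 0.00946). Tcap, a Z-disc protein that binds titin, was among the most abundant genes to rise, with 3341, 1980, 3002 and 3815 FPKM at ZT12, against 811, 1281, 1142 and 1332 FPKM at ZT0. The log2 difference of Tcap was 1.40 ± 0.25 (SE, adjusted p = 0.0292), and it was no longer called without ZT0 library 1, 2 or 3 or without ZT12 library 5, 7 or 8 (adjusted p 0.0575 to 0.1165). Coq10b, a protein of ubiquinone function, rose 1.70-fold (adjusted p = 0.0179), and missed the threshold without ZT0 library 1 or 2 or ZT12 library 7 or 8 (adjusted p 0.0502 to 0.0684). The count of 6 was 3 without ZT12 library 7 or 8, 2 without ZT0 libraries 1 and 3, 12 without ZT0 library 4 and ZT12 library 6, and 0 with age as a covariate (1793 of the tested genes were at an unadjusted p under 0.05 in that limma fit). Without ZT0 library 4 and ZT12 library 6, 1409 of all tested genes were called.

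The lists and their members were chosen with earlier results of these data known. Glucocorticoid-induced genes were the list with the most calls, 11 of 22 tested, all higher at ZT12, against 0.948% of all tested genes. In this list 20 differences were positive, with a median of 0.74, and 0.38 in sham muscle. The largest belonged to Arrdc2, an arrestin-domain protein, with 49.1, 33.5, 27.4 and 32.7 FPKM at ZT12, against 2.24, 2.23, 1.64 and 2.56 FPKM at ZT0. This was the largest difference of any gene called, at 4.02 ± 0.19 (SE, adjusted p = 1.94e-05), or 16.2-fold. Per1 counts among them too. Fkbp5, a co-chaperone of the glucocorticoid receptor, had 6.33, 6.34, 3.15 and 4.59 FPKM at ZT12, against 1.47, 1.37, 1.54 and 2.25 FPKM at ZT0, and rose by 1.59 log2 units (adjusted p = 0.0157). Tsc22d3, which encodes the glucocorticoid-induced leucine zipper protein, had 56.4, 53.6, 47.1 and 46.5 FPKM at ZT12, against 17.5, 24.6, 22.9 and 33.9 FPKM at ZT0, a difference of 1.08 (adjusted p = 0.0232). No library of one time reached the range of the other in these genes.

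Glul, which encodes glutamine synthetase, averaged 102 ± 13 FPKM at ZT12 and 46.4 ± 4.4 FPKM at ZT0 (SD, n = 4 each, adjusted p = 0.003). Dusp1, a phosphatase of MAP kinases, had 48.7, 56.7, 51.9 and 42.2 FPKM at ZT12, against 25.2, 28.8, 27.4 and 25.5 FPKM at ZT0 (adjusted p = 0.00547). The other members that rose were Cebpd (1.30 log2 units), Nfkbia (0.87), Sgk1 (0.83), Klf9 (0.66) and Pik3r1 (0.57), the first a transcription factor and the second the inhibitor of NF-κB. Fkbp5, Tsc22d3, Cebpd, Nfkbia, Sgk1 and Klf9 were named after their values were seen. The atrophy ligase genes Trim63 and Fbxo32, which glucocorticoids can induce in muscle, differed by -0.11 and -0.04 log2 units (adjusted p = 0.748 and 0.969), and were likewise chosen after their values were seen. The count of 11 was 5 when ZT0 library 3 or ZT12 library 7 was left out, 4 when ZT12 library 5 was, 3 without ZT0 libraries 1 and 3, and 2 with age as a covariate. The list's median ranged from 0.61 to 0.79 over the alternatives run.

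**Figure D3:**
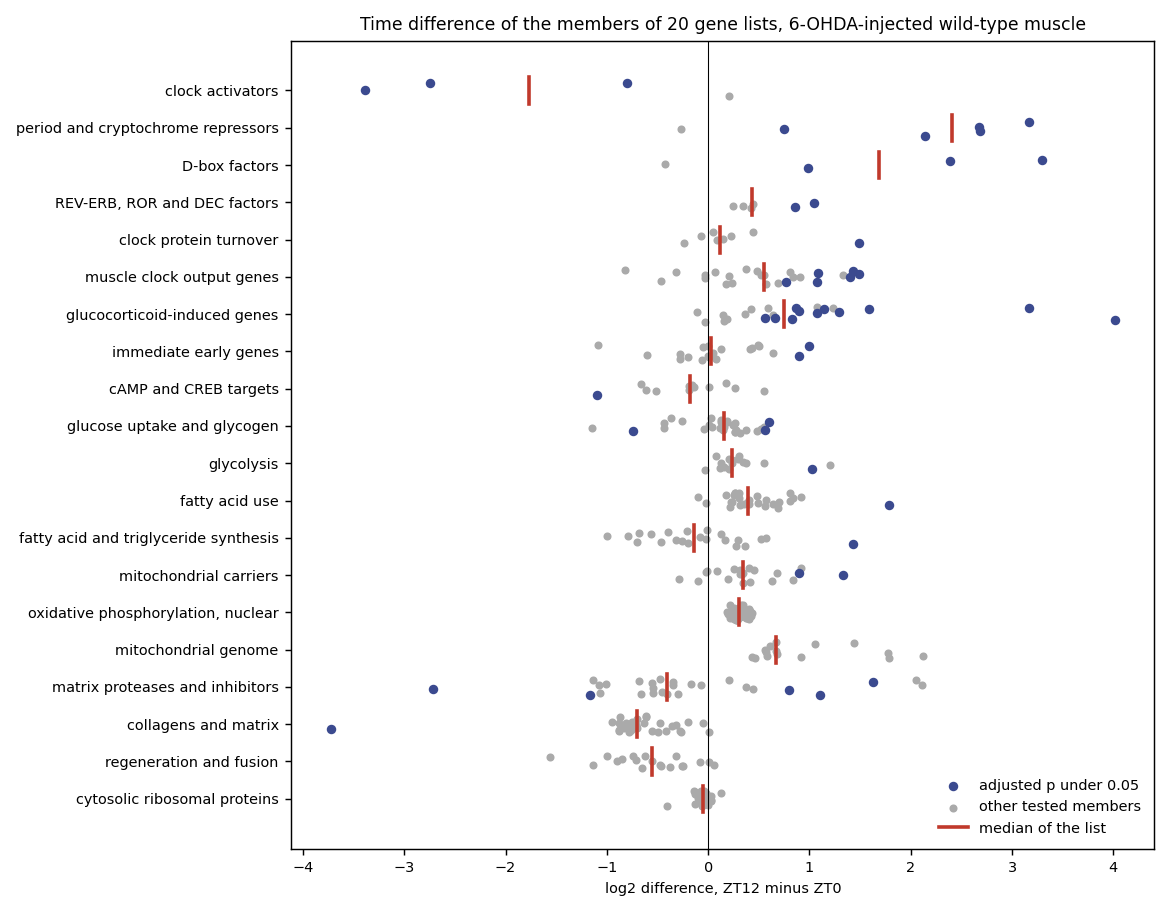
Log2 difference between ZT12 and ZT0 (horizontal axis) of each tested member of 20 gene lists in injected muscle, with members past the test in blue and the list's median as a red bar. Glucocorticoid-induced genes hold 11 blue points and a median of 0.74, and the collagens and matrix list has a median of -0.71 with Spon2 as its single blue point.

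Immediate early genes had 2 of 20 members higher, against 0.948% of all tested genes, and a median of 0.03. Besides Dusp1 these held Ier3, an early response gene, which averaged 7.71 ± 1.59 FPKM at ZT12 and 3.83 ± 0.58 FPKM at ZT0 (SD, n = 4 each, adjusted p = 0.0203). Ier3 missed the threshold without ZT0 library 1 or 2 or ZT12 library 5, 7 or 8 (adjusted p 0.0539 to 0.0762). Klf6 and Zfp36 differed by 0.49 ± 0.14 and 0.43 ± 0.13 log2 units (SE) and did not pass. Among 12 targets of cAMP and CREB, 1 fell, where 0.235% of all tested genes fell. Rgs2, which limits signalling by G protein-coupled receptors, had 1.87, 3.01, 3.85 and 3.04 FPKM at ZT12, against 6.10, 6.73, 5.83 and 5.82 FPKM at ZT0, and fell by 1.10 on the log2 scale (adjusted p = 0.0264). Without ZT0 library 1, 2 or 3 or ZT12 library 8 it missed the threshold (adjusted p 0.0633 to 0.0852). Pde4b, Nr4a1 and Dusp5 of the same list had differences of -0.51, 0.55 and -0.61 and did not pass.

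In glucose use, 2 of 29 genes rose and 1 fell, where 0.948% of all tested genes rose and 0.235% fell. Irs1, which couples the insulin receptor to its pathway, had 2.91, 3.08, 2.54 and 2.75 FPKM at ZT12, against 4.36, 5.05, 4.37 and 5.06 FPKM at ZT0, and fell by 0.74 (SE 0.10, adjusted p = 0.00785). Tbc1d4, which controls the GLUT4 transporter, averaged 3.69 ± 0.24 FPKM at ZT12 and 2.43 ± 0.15 FPKM at ZT0, and rose 1.51-fold (adjusted p = 0.0157). Pik3r1, a subunit of PI3 kinase, rose 1.48-fold (adjusted p = 0.0215). Tbc1d4 missed the threshold without ZT0 library 3 or ZT12 library 7 or 8, and Pik3r1 without any one of the libraries other than ZT0 library 4 and ZT12 library 6 (adjusted p up to 0.0767 and 0.07625). Tbc1d1, which is related to Tbc1d4, differed by 0.55 ± 0.13 log2 units (SE) and did not pass. In glycolysis 1 of 16 genes rose, and 15 had a positive difference with a median of 0.23. Pfkfb4, which sets the level of a glycolytic activator, had 13.2, 8.81, 12.3 and 13.4 FPKM at ZT12, against 4.85, 6.11, 5.39 and 7.03 FPKM at ZT0 (log2 difference 1.02, adjusted p = 0.0169), and missed the threshold without ZT0 library 3 or ZT12 library 5, 7 or 8 (adjusted p 0.0659 to 0.0745). Pfkfb1, Ldhb and Pfkfb2 differed by 1.21, 0.55 and 0.34 without passing. The glycolysis median was 0.03 after quantile normalization and -0.07 without ZT0 libraries 1 and 3.

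In fatty acid use, 1 of 28 genes rose, against 0.948% of all tested genes, and 26 had a positive difference, with a median of 0.40. Plin5, a lipid droplet protein of oxidative muscle, had 7.92, 8.33, 17.9 and 15.4 FPKM at ZT12, against 2.07, 4.34, 3.42 and 4.13 FPKM at ZT0. It rose by 1.79 log2 units (SE 0.32, adjusted p = 0.0281) and was no longer called without ZT0 library 1 or 3 or without ZT12 library 7 or 8 (adjusted p 0.0539 to 0.105). Mlycd, Lipe and Slc27a1 differed by 0.81, 0.49 and 0.81 and did not pass. Of 22 genes of fatty acid and triglyceride synthesis, Dgat2 alone rose, and Scd2, Srebf1 and Fads2 had differences of -1.003, -0.56 and -0.79 (adjusted p = 0.0567, 0.0663 and 0.099). Of 21 mitochondrial carriers, 2 rose. Slc25a33, a carrier of pyrimidine nucleotides, averaged 8.28 ± 0.99 FPKM at ZT12 and 4.46 ± 0.67 FPKM at ZT0 (adjusted p = 0.0119), and Slc25a34 averaged 6.11 ± 2.46 and 2.30 ± 0.35 FPKM (SD, n = 4 each, adjusted p = 0.0377). Slc25a34 missed the threshold without any one of the libraries other than ZT12 libraries 5 and 6 (adjusted p up to 0.142). Slc25a25 and Slc25a42 differed by 0.91 and 0.63 without passing.

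No nuclear gene of oxidative phosphorylation passed in limma (0 of 33). All 33 had a positive difference, with a median of 0.30 against 0.0032 over all tested genes. Their summed levels overlapped, with 6841 to 10470 FPKM at ZT12 and 5379 to 8758 FPKM at ZT0. Uqcrc1 and Cyc1 differed by 0.37 ± 0.15 and 0.35 ± 0.16 log2 units (SE). None of the 15 genes listed for the mitochondrial genome passed, and all had a positive difference, with a median of 0.67. mt-Co2, a subunit of complex IV, had 1467, 570.0, 1575 and 1171 FPKM at ZT12 and 263, 454, 436 and 540.1 FPKM at ZT0 (adjusted p = 0.0879). The lowest ZT12 library, number 6, lay just above the highest ZT0 library. mt-Atp6 differed by 1.79 ± 0.51 (SE, adjusted p = 0.159). All transcripts of the mitochondrial genome took 13.2% ± 2.3 of recovered reads at ZT12 and 9.57% ± 2.57 at ZT0 (SD, n = 4 each), with 9.90% in ZT12 library 6 and 13.1% in ZT0 library 4. Without ZT0 libraries 1 and 3 the median of the mitochondrial genome list was 0.26. Without ZT0 library 4 and ZT12 library 6 it was 1.09, with 11 of 15 genes called, as were 1409 of all 11926 tested genes. Both pairs were chosen after seeing the data. Library 4 had the highest sum of this list at ZT0 (107500 FPKM) and library 6 the lowest at ZT12 (71940 FPKM). Leaving them out therefore widens the gap by the choice itself.

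Most matrix genes pointed down at ZT12 without passing. Of 32 genes for collagens and other matrix proteins, 31 had a negative difference, with a median of -0.71, and 1 fell, against 0.235% of all tested genes. In bulk muscle, fewer cells of a type and less RNA per cell cannot be told apart. Spon2, a secreted matrix protein, had 0.184, 0.952, 0.438 and 0.303 FPKM at ZT12, against 7.73, 4.10, 8.48 and 2.98 FPKM at ZT0. It had the largest fall of the genes called, by 3.73 on the log2 scale (SE 0.49, adjusted p = 0.00756), and ZT12 library 6 was the highest of its time. Col3a1, a main fibrillar collagen, had 118, 381, 164 and 139 FPKM at ZT12 and 503, 272, 358 and 244 FPKM at ZT0 (adjusted p = 0.308), where library 6 lay within the ZT0 range. Eln and Loxl1, which encode elastin and an enzyme that cross-links it, differed by -0.88 ± 0.21 and -0.95 ± 0.32 (SE). The list's median was -0.25 without ZT0 libraries 1 and 3. Without ZT0 library 4 and ZT12 library 6, 22 of its genes were called lower, as were 781 of all 11926 tested genes. Both pairs were chosen after seeing the data. Library 4 had the lowest sum of this list at ZT0 (1431 FPKM) and library 6 the highest at ZT12 (2282 FPKM). Leaving them out therefore widens the gap by the choice itself, and that count is no separate evidence of a fall.

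Matrix proteases and their inhibitors moved both ways, with 3 of 27 higher and 2 lower, against 0.948% and 0.235% of all tested genes. Adamts4, which cuts aggrecan, had 0.147, 0.639, 0.316 and 0.255 FPKM at ZT12, against 3.86, 1.73, 1.85 and 1.28 FPKM at ZT0, from 17 to 103 and 156 to 641 reads per library. It fell by 2.71 (SE 0.46, adjusted p = 0.0245). Plat, the tissue plasminogen activator, had 2.88, 4.35, 2.87 and 2.94 FPKM at ZT12, against 9.24, 6.04, 8.10 and 6.00 FPKM at ZT0, and fell by 1.17 (adjusted p = 0.0168). Timp3, an inhibitor of metalloproteases, rose 1.74-fold (adjusted p = 0.0157) and Adamtsl4, a matrix protein of the ADAMTS-like group, rose 2.14-fold (adjusted p = 0.0264). Plat and Adamtsl4 missed the threshold without ZT0 library 3 or ZT12 library 5, 7 or 8 (adjusted p up to 0.0745 and 0.106). Timp3 missed it without ZT0 library 3 or ZT12 library 5 (adjusted p up to 0.061), and Adamts4 without any one of the libraries other than ZT0 library 4 and ZT12 library 6 (adjusted p up to 0.0901).

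The genes of regeneration and fusion did not pass in limma (0 of 19), with 17 negative differences and a median of -0.56. Ckb and Igf2 differed by -0.74 ± 0.22 and -0.90 ± 0.40 (SE). The summed level of 8 markers of satellite cells and regenerating fibres was 42.1, 86.6, 57.1 and 52.5 FPKM at ZT12, against 165, 97.9, 141 and 43.2 FPKM at ZT0. That of 12 macrophage markers was 239, 416, 161 and 160 FPKM at ZT12, against 524, 228, 542 and 334 FPKM at ZT0. That of the matrix list was 1009, 2282, 1170 and 1075 FPKM at ZT12, against 3049, 1684, 2083 and 1431 FPKM at ZT0. The groups overlapped in all 3 sums, and no macrophage or regeneration marker passed the test. ZT12 library 6 was the highest of its time in each. With the mean of the matrix list as a covariate, 102 genes were called, and the median for oxidative phosphorylation, nuclear genes, was -0.0049, that of the mitochondrial genome list 0.15 and that of glycolysis -0.13. The part of other cell types in these differences was not tested.

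**Figure D4:**
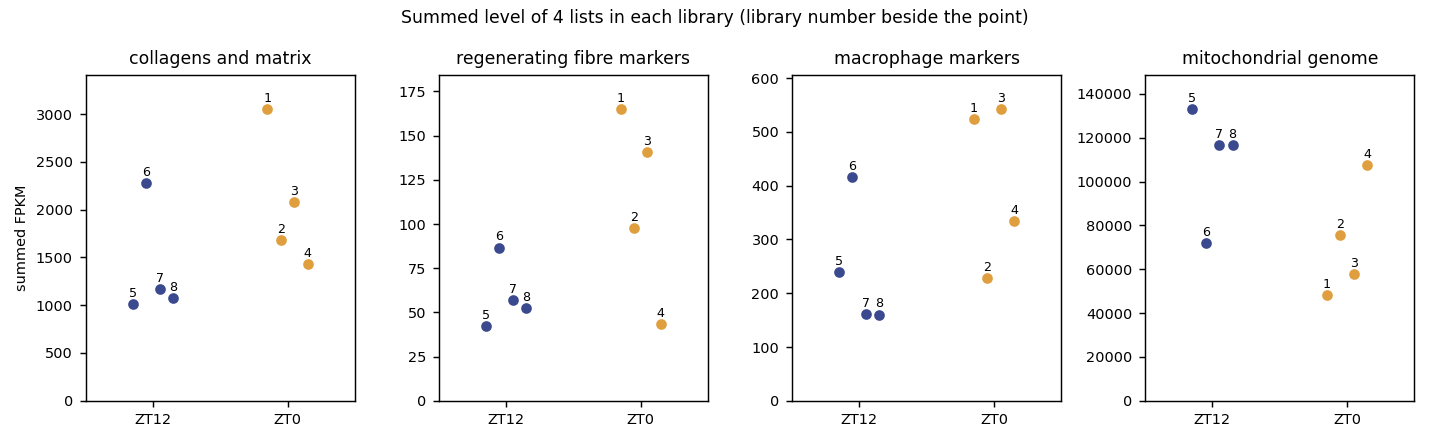
Summed FPKM (vertical axes, from 0) of the matrix list, of markers of regenerating fibres and macrophages, and of the mitochondrial genome in each injected library, numbered beside its point. ZT12 library 6 is the highest of its time for the first 3 and the lowest for the mitochondrial genome, and ZT0 libraries 1 and 3 are the highest of their time for the first 3 and the lowest for the mitochondrial genome.

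The other large rises belonged to genes of varied function. Adh1, a class I alcohol dehydrogenase, had 26.8, 13.6, 24.3 and 21.8 FPKM at ZT12, against 1.56, 3.96, 2.11 and 6.84 FPKM at ZT0, and rose 6.80-fold (adjusted p = 0.0157), though not without ZT0 library 3 or ZT12 library 5, 7 or 8 (adjusted p 0.0583 to 0.0616). Gadd45g, a stress-inducible gene, had 64.6, 53.0, 53.1 and 47.9 FPKM at ZT12, against 12.2, 17.0, 12.9 and 12.3 FPKM at ZT0, and rose by 2.01 log2 units (SE 0.14, adjusted p = 0.00019). Slc10a6, a carrier of sulphated steroids, rose by 2.48 ± 0.19 (SE, adjusted p = 0.000496) at levels under 3 FPKM. These groups were widely apart, and Gadd45g and Slc10a6 stayed called without any single library and with age as a covariate. Cebpb, a transcription factor, had 15.4, 15.0, 8.51 and 6.91 FPKM at ZT12, against 2.22, 2.02, 3.27 and 2.26 FPKM at ZT0 (log2 difference 2.17, adjusted p = 0.00572). Map3k6, a MAP kinase kinase kinase, rose by 2.12 ± 0.22 (SE), and Angptl7, an angiopoietin-like secreted protein, by 2.18 ± 0.34 (adjusted p = 0.0677 without ZT12 library 5). Cish, a feedback inhibitor of cytokine receptors, had 1.88, 0.907, 1.68 and 2.46 FPKM at ZT12, against 0.294, 0.192, 0.176 and 0.117 FPKM at ZT0, and rose by 3.07 ± 0.40 (SE, adjusted p = 0.00722). It was the one gene of 25 for growth signals to pass, where 1.18% of all tested genes passed. Gdf11, Socs2 and Sesn3 of that list differed by -0.57, 0.91 and -0.79. With age as a covariate the calls of Adh1, Cebpb, Map3k6, Angptl7 and Cish were lost (adjusted p = 0.128, 0.0742, 0.0742, 0.180 and 0.148, in that order). Their log2 differences in that fit were 3.385, 2.618, 2.287, 2.406 and 3.254, each larger than without the covariate. Other genes that lost their call had smaller ones, among them Plin5 (1.456, against 1.786 without age) and Slc25a34 (0.6727, against 1.335).

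Among the largest falls, Pim1, a kinase induced by cytokines, had 2.38, 2.83, 1.85 and 2.52 FPKM at ZT12, against 6.09, 5.70, 6.48 and 7.36 FPKM at ZT0, and fell by 1.43 (SE 0.14, adjusted p = 0.0017). Pcdh18, a protocadherin, and Vgll3, a cofactor of TEAD transcription factors, fell by 1.09 and 1.07 (adjusted p = 0.0215 and 0.0439). Pcdh18 missed the threshold without ZT0 library 3 or ZT12 library 5, 7 or 8, and Vgll3 and Wsb1 without any one of the libraries other than ZT0 library 4 and ZT12 library 6 (adjusted p up to 0.085, 0.15 and 0.0959). Smaller falls were those of Ypel2 by 0.98, of the kinase gene Dyrk2 by 0.96, of Wsb1, a ligase subunit with a SOCS box, by 0.92, and of Leo1, a part of the PAF1 elongation complex, by 0.88. Leo1 averaged 5.20 ± 0.44 FPKM at ZT12 and 9.57 ± 0.87 FPKM at ZT0 (SD, n = 4 each, adjusted p = 0.00326). Leo1 was also 1 of 11 listed enzymes and proteins thought to follow E-boxes and D-boxes. In that list 1 gene fell, Leo1, and 1 rose, Bhlhe41, where 0.235% of all tested genes fell and 0.948% rose. Wee1 and Cys1 of the list had differences of 0.90 and 0.84 that did not pass. All 28 genes that fell were protein-coding. Of those that rose, 99 were, and the other 14 included 3 miRNA genes, 2 mitochondrial tRNA genes and 4 antisense genes. The miRNA and tRNA genes are short. Mir697, mt-Th and mt-Tl2 rested on few reads, at most 8, 26 and 16 per library, while Mir1b and Mir133a-2 had at least 53 and 71. Reads of the antisense genes cannot be told from those of the opposite strand, since the counting mode is not given in the sources used here.

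One gene of the unfolded protein and ATF4 response (1 of 18) rose, where 0.948% of all tested genes rose. Chac1, which degrades glutathione, had 11.5, 9.70, 8.19 and 9.53 FPKM at ZT12, against 1.81, 2.35, 2.31 and 3.60 FPKM at ZT0 (log2 difference 1.98 ± 0.20 SE, adjusted p = 0.0017), while Herpud1, Pdia4 and Calr differed by 0.59, -0.56 and -0.38. Of 17 solute carriers Slc10a6 alone passed, and Slc20a1, Slc16a9 and Slc7a2 differed by -0.65, -0.80 and 0.60. Of 34 sarcomere genes Tcap alone passed, and Tnni1, Myot and Tnnc2 differed by -0.58, 0.29 and 0.37.

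No member passed in limma in the remaining lists, although 1782 of all tested genes were at an unadjusted p under 0.05. These lists cover heat shock and cold-inducible genes (20 tested, median -0.06), atrophy ligases and FoxO (15, -0.0041), autophagy and mitophagy (23, -0.0046), Nrf2 targets (21, 0.06), myosin heavy chains (7, 0.04), calcium handling (20, -0.01) and denervation and neuromuscular junction genes (21, -0.24). They also cover cytosolic ribosomal proteins (35, -0.05), chemokines and cytokines (13, -0.15), the interferon response (21, 0.07), the cell cycle (11, -0.13) and endothelial flow and angiogenic genes (21, -0.01). Values of members with the smallest p in these lists are log2 differences, none of which passed. Hsp90aa1 and Dnaja1 differed by -0.51 and -0.35, Fbxo30 and Fbxo31 by -0.45 and 0.58, Tfeb and Bnip3 by 0.36 and 0.37, and Mt1 and Cat by 0.59 and 0.44. For Myh14 and Myh8 the differences were 0.31 and -1.002, for Sln -1.06, and for Dok7 and Colq 0.62 and -0.77. For Rpl3 and Rps19 they were -0.41 and -0.13, for Il15 and Ccl7 0.79 and -0.78, for Irf1 and Ifit3 -0.25 and 0.50, for Ccnd1 and Pcna -0.62 and -0.13, and for Thbd and Flt1 -0.45 and 0.74. The standard error was between 0.10 and 0.56 log2 units for these genes. After quantile normalization the medians of the Nrf2, myosin and sarcomere lists were -0.01, -0.15 and -0.08.

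Sham muscle, measured in other libraries, gave the same contrast without injection. Of the 113 genes higher at ZT12 in injected muscle, 107 had a positive difference in sham muscle. Of the 28 lower genes, all 28 had a negative difference in sham muscle. Over all tested genes the sign was shared by 61.8%. A limma fit of the 7 sham libraries called 79 genes higher (0.662%) and 82 lower (0.688%). The injected and sham calls shared 38 higher genes, which is 33.6% of the injected and 48.1% of the sham calls, and 13 lower genes, which is 46.4% of the injected and 15.85% of the sham calls. The genes higher in injected muscle had a median difference of 1.11 there and 0.82 in sham muscle, and those lower had -0.94 and -0.99. Having passed in injected muscle, these genes are not an unbiased measure of size there.

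For the clock genes the difference of injected minus sham muscle ranged from -0.52 in Per2 to 1.28 in Hlf, and 5 of 20 were at an unadjusted p under 0.05, with a lowest adjusted p of 0.655. Arntl differed by -2.74 in injected and -2.79 in sham muscle, and the 95% interval of the difference between them was -0.34 to 0.45. For Dbp the 2 values were 3.29 and 3.51 (interval -0.85 to 0.42), and for Bhlhe41 0.86 and 0.86 (interval -0.42 to 0.41). Per1 differed by 3.17 in injected and 2.22 in sham muscle (interval 0.27 to 1.63, adjusted p = 0.787), Hlf by 2.39 and 1.11 (0.35 to 2.21, adjusted p = 0.787) and Arrdc2 by 4.02 and 2.73 (0.16 to 2.41, adjusted p = 0.827). None of these differences passed after adjustment over all genes.

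**Figure D5:**
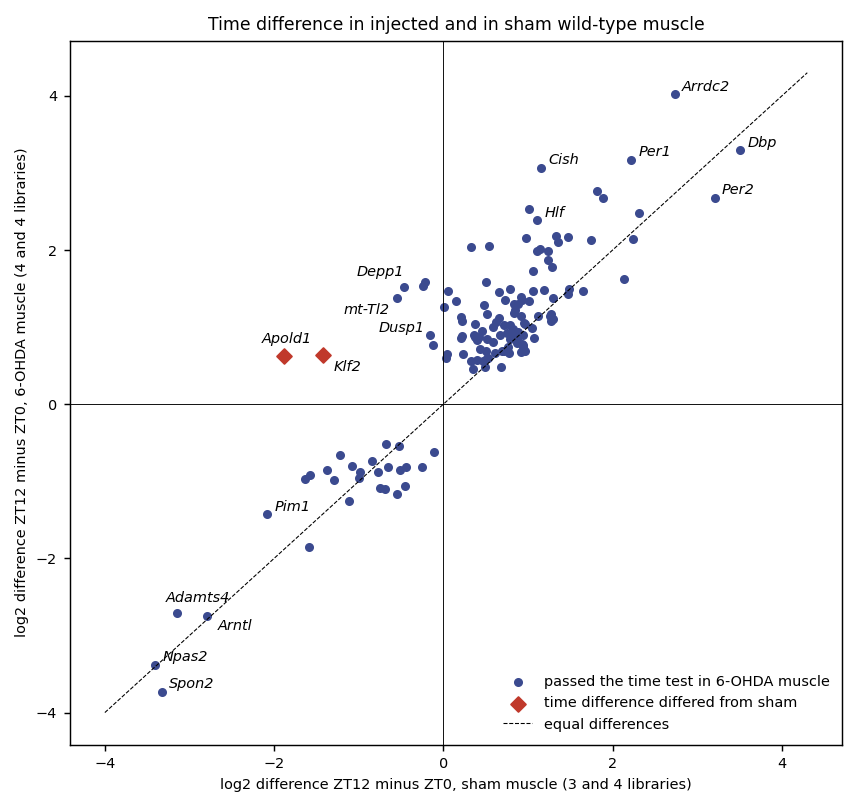
Log2 difference between ZT12 and ZT0 in injected muscle (vertical axis) against that in sham muscle (horizontal axis) for the 141 genes past the test in injected muscle, and in red the 2 genes whose time difference differed from sham. All but 6 of the 141 blue points share the sign of both differences, and Klf2 and Apold1 lie above 0 in injected and below 0 in sham muscle.

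The time difference itself differed between injected and sham muscle for 2 genes in limma (0.0168% of 11926), and 668 were at an unadjusted p under 0.05. Both have known roles in endothelial cells. Klf2, a transcription factor induced by blood flow, had 19.7, 19.2, 21.03 and 11.0 FPKM at ZT12 and 13.7, 9.91, 11.6 and 9.36 FPKM at ZT0 in injected muscle, where the times overlapped (log2 difference 0.64, adjusted p = 0.212). In sham muscle it averaged 7.36 ± 0.45 FPKM at ZT12 (SD, n = 3) and 19.97 ± 3.26 FPKM at ZT0 (SD, n = 4), a log2 difference of -1.43. The injected minus sham difference of Klf2 was 2.07 (95% interval 1.48 to 2.66, adjusted p = 0.027).

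Apold1, an endothelial early response gene, had 2.85, 3.72, 4.72 and 2.14 FPKM at ZT12 and 2.46, 2.03, 1.91 and 1.94 FPKM at ZT0 in injected muscle (log2 difference 0.63). In sham muscle it averaged 1.02 ± 0.39 FPKM at ZT12 (SD, n = 3) and 3.66 ± 0.58 FPKM at ZT0 (SD, n = 4), a difference of -1.89. The injected minus sham difference of Apold1 was 2.52 (95% interval 1.74 to 3.29, adjusted p = 0.0315). The 8 endothelial markers listed had a median time difference of 0.03 in injected and -0.18 in sham muscle, and none passed. Klf2 remained called in 5 and Apold1 in 4 of 15 fits that left out 1 library, and neither passed with age as a covariate. Over all 26 alternatives their adjusted p ranged from 0.000329 to 0.9997 for Klf2 and from 0.00854 to 0.441 for Apold1.

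The next 4 by p were Gm16118, mt-Tl2, Dusp1 and Cda, all at an adjusted p of 0.32, which Slc25a25 shared (0.91 in injected and -0.82 in sham muscle). Dusp1, higher at ZT12 in injected muscle by 0.90, differed by -0.16 in sham muscle. mt-Tl2, a mitochondrial tRNA gene, differed by 1.38 in injected and -0.54 in sham muscle, on 10 to 16 reads per injected library at ZT12 and 4 to 6 at ZT0. Gm16118 had 0.89 in injected and -0.61 in sham muscle, and Cda, a cytidine deaminase, had -0.41 and 1.45. Of the 141 genes called in injected muscle, 6 had the opposite sign in sham muscle, namely Dusp1, Depp1, Mir697, A930016O22Rik, mt-Th and mt-Tl2, named after their values were seen. Depp1, a target of FOXO factors, had 11.1, 9.47, 13.2 and 6.13 FPKM at ZT12, against 3.28, 3.37, 3.36 and 3.303 FPKM at ZT0, in injected muscle. Its log2 difference was 1.53 there (adjusted p = 0.00725) and -0.47 in sham muscle. The difference between injected and sham muscle was past the threshold in none of these 6.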

How the data were processed

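The deposited table holds log2 values, log2(FPKM + 0.01), per the file's values, for 14500 genes in 23 libraries. The submitters' processing notes name HISAT2 2.1.0 and featureCounts 1.6.2 beside edgeR 3.30.0, quality tools (FastQC 0.11.8 and Trim Galore 0.5.0) and the GRCm38 build. Whether a factor between libraries was applied, and the strand mode, are not given in the sources used here. GENCODE M21 gave symbols and coordinates for 14435 genes, and depth was recovered from the steps between low FPKM values (91.9% to 94.9% of values up to 20 reads whole within 0.1 read).

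The 8 injected wild-type libraries were fitted with limma 3.58.1 in R 4.3.3 (lmFit, eBayes with a trend), ZT12 minus ZT0, with Benjamini-Hochberg adjustment over all 11926 genes and a threshold of 0.05. Log2 differences are on the log2(FPKM + 0.01) scale, which understates the change of low genes, folds are their antilogs, and means ± SD are linear FPKM. The difference to sham muscle used 15 wild-type libraries in 1 model. The fit was tested on simulated data. Gene lists and members were chosen with earlier results of these data known. Named genes were the 20 clock genes, the 12 largest rises and 12 largest falls called with a mean log2 FPKM reaching 1 at either time, without overlap and outside Gm and Rik symbols, up to 4 genes of smallest p per list with a call (2 without), and 6 for the difference to sham. A few of the genes this rule chose are not reported here. Alternatives were another pseudocount (1), other filters and scalings, array weights, age, pooled spreads, the replicate block and leaving out libraries. Tables were made in python 3.11.15 (pandas 2.3.3, numpy 2.4.6) and figures in matplotlib 3.10.9.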

Additional observations from a re-analysis of the deposited data

Results flagged for a closer look

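The time difference of Klf2 and of Apold1 differed between injected and sham muscle, by 2.07 and 2.52 log2 units, as tested in 1 limma model. Of 26 alternatives, Klf2 was called in 13 and Apold1 in 11, and neither was called with age as a covariate.

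Single libraries stood far from the other 3 of their time in 14 of 266 groups of 4 values of named genes, where chance gives about 1 in 20. ZT12 library 6 was high for Ckb (11.6 FPKM, the others 7.35 to 7.78), Plat (4.35, the others 2.87 to 2.94) and Loxl1 (23.5, the others 9.40 to 10.3), and low for Irf1 (3.48, the others 4.37 to 4.39) and Ldhb (85.9, the others 140.5 to 152). ZT12 library 8 was low for Klf2 (11.0, the others 19.2 to 21.03) and high for Usp2 (49.8, the others 38.5 to 39.4), and ZT12 library 7 was low for Dok7 (6.32, the others 7.47 to 7.58). ZT0 library 4 was low for Srebf1 (7.22, the others 8.92 to 9.23), Dok7 (3.32, the others 5.07 to 5.40) and Usp2 (12.3, the others 15.6 to 15.8), and high for Hlf (0.397, the others 0.291 to 0.300) and Pde4b (8.45, the others 4.99 to 5.37). ZT0 library 2 was high for Dgat2 (11.8, the others 8.02 to 8.38).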

How the results depend on the processing

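The count of 141 genes became 1145 with array weights, 17 with age as a covariate, 326 with the spread of 15 wild-type libraries, 85 with that of all 23, of which 8 are of the RE-RE genotype, and 90 with own totals of recovered reads, where the median of all genes was -0.12. It ranged from 62 to 355 when 1 library was left out, and was 40 without ZT0 libraries 1 and 3 and 1409 without ZT0 library 4 and ZT12 library 6. The own totals, both pairs of libraries and the matrix covariate (102) were chosen after seeing the data. The cause of these changes was not tested. A pseudocount of 1, median or quantile scaling, a robust spread, every gene kept and a stricter filter (mean log2 FPKM from 1) gave 122 to 162. Against 113 higher and 28 lower, the split was 539 and 606 with array weights, 216 and 110 with the spread of 15 libraries, 175 and 110 without ZT0 library 4, and 182 and 173 without ZT12 library 6.

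None of the 52 named genes called reversed under an alternative run, and 31 remained called without any 1 library, 12 with age as a covariate, 38 with own totals, 37 with the spread of all 23 libraries, 22 without ZT0 libraries 1 and 3, and 52 without ZT0 library 4 and ZT12 library 6. The 2 genes of the difference to sham muscle became 0 with age as a covariate (849 at an unadjusted p under 0.05), 0 with the spread of all 23 libraries (224) and 0 with own totals (856), and 17 with array weights, and ranged from 0 to 6 without 1 library. The replicate block gave 2. It rests on numbers shared by injected and sham libraries in 7 pairs, whose deviations correlated at -0.10 to 0.088 and whose ages were equal in 1 pair, so that the libraries share only a number. ZT12 and ZT0 share no number, so that no paired analysis was possible between the times. Depth limits genes such as Npas2 and mt-Tl2, which rest on under 20 reads in some libraries.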
